A study of Homo sapiens with 12 samples.

Results

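HCT116 and DLD1 are human lines grown from colorectal tumours, and in both 1 allele of a PI3K catalytic subunit has an activating mutation. The allele of HCT116 is altered in the kinase domain and that of DLD1 in the helical domain. The comparison made here sets HCT116 cells left with only their mutant allele (mutant-only) against DLD1 cells left with only theirs, on 3 arrays each, which are 6 of the 12 arrays of the series. The other 6 arrays hold, for each line, 3 arrays of cells in which the wild-type copy alone was kept (wild-type-only). Across all 4 groups an allele had been removed by gene targeting, and no parental line with both alleles was among the samples. The labels name 1 targeted line per group and do not say how many clones it came from. All cells were kept in 0.5% serum for 19 h, and 500 ng of total RNA was labelled for a human gene array.

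The arrays are called biological replicates in the labels, which do not say whether they are separate cultures, and p-values here measure the spread between them. The cell line and the mutation change together between the groups compared, so a difference due to the line and a difference due to the allele cannot be told apart. The same line gap measured in wild-type-only cells, on separate arrays, is therefore given for many of the genes and gene lists described.

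PI3K is a lipid kinase that is switched on by growth factor receptors and by RAS and that relays the signal to AKT and mTOR, which promote growth, survival and glucose use. Mutations in the kinase domain and in the helical domain both raise its activity, in ways known to depend differently on RAS and on the regulatory subunit. Both lines carry a defect in mismatch repair. HCT116 is widely used as a line with functional p53 and with a stabilised β-catenin, whereas DLD1 carries a mutant p53 and a truncated APC.

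The deposited values are log2 expression values, so that a difference of 1 is a 2-fold difference. The 18377 genes with a symbol were each represented by 1 probe set, the one with the highest mean over the 12 arrays. Array medians lay between 7.42 and 7.53. Arrays of 1 group correlated by 0.9956 to 0.9980 among HCT116 mutant-only arrays and by 0.9969 to 0.9983 among DLD1 mutant-only arrays, and the 9 pairs across these groups by 0.9556 to 0.9596 (Pearson r over genes). No detection p-values were used, so a low value was not set against background.

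Among markers of colonic epithelium EPCAM was at 12.28 ± 0.11 in HCT116 mutant-only cells and at 12.54 ± 0.13 in DLD1 mutant-only cells (SD, n = 3 each), and KRT8 at 13.15 ± 0.04 in HCT116 and at 13.42 ± 0.08 in DLD1 mutant-only cells. Of 10 colonic epithelium markers, 3 were at least 2-fold lower in HCT116 mutant-only cells, against 4.32% of all genes, namely CDH1, CDX2 and CDH17. At the limma adjusted p alone 8 were lower and 1 higher, against 26.3% and 24.3% of all genes. The median of these markers was -0.35. None of the 3 leukocyte, 3 endothelial and 4 fibroblast markers measured differed by 2-fold.

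Between HCT116 and DLD1 mutant-only cells, 1503 of 18377 genes (8.18%) passed the call used throughout, a limma p adjusted over all genes under 0.05 together with a difference of at least 2-fold. Of these, 709 (3.86%) were higher in HCT116 mutant-only cells and 794 (4.32%) were lower. The difference was at least 4-fold for 190 genes in each direction, and at least 16-fold for 28 higher and 32 lower genes. Without the fold limit 9305 genes (50.6%) passed, which is why the fold limit was kept. The arrays of the groups did not overlap for 10625 genes (57.8%), and for 1502 of the 1503 called genes. Over all genes the median difference was 0.0082 on the log2 scale.

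Of the genes named, GTSF1 and OLR1 had the largest difference in each direction, low in one line and high in the other. GTSF1, which protects germ cells from transposons as a partner of PIWI proteins, had log2 values of 12.34, 12.43 and 12.22 on the HCT116 mutant-only arrays and of 5.68, 5.69 and 5.54 on the DLD1 mutant-only arrays. Every HCT116 array stood far above every DLD1 array, and the difference of 6.70 (SE 0.0976) was 104-fold (limma adjusted p = 3.98e-15). In wild-type-only cells the gap of GTSF1 was 6.56. In bulk RNA a lower level in every cell and a smaller share of cells with the transcript cannot be told apart. OLR1, a scavenger receptor for oxidised LDL, was the mirror image, with 6.01, 5.89 and 6.04 in HCT116 mutant-only cells and 12.63, 12.79 and 12.69 in DLD1 mutant-only cells. It was 106-fold lower in HCT116 (log2 difference -6.73, SE 0.0760, limma adjusted p = 3.68e-16), and its gap in wild-type-only cells was -6.68.

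Among the other genes with the largest excess in HCT116 mutant-only cells were enzymes and transporters. CYP24A1, which inactivates vitamin D, had values of 12.38, 12.31 and 12.27 in HCT116 mutant-only cells, against 6.19, 6.40 and 6.46 in DLD1 mutant-only cells, a 62.7-fold difference, with a gap of 5.97 in mutant-only and 5.30 in wild-type-only cells. ELOVL5, an elongase of polyunsaturated fatty acids, was higher by 5.32 on the log2 scale, and ABCC2, an export pump for conjugated drugs and bilirubin, by 5.12. RAB31, a GTPase of vesicle traffic, was 44.2-fold higher, ANO6, a phospholipid scramblase, 42.4-fold, MSN, which links the membrane to actin, 34.6-fold, and SYT1, a calcium sensor of exocytosis, 33.4-fold. The X-linked cancer-testis gene MAGEB2 was at 10.69 ± 0.08 in HCT116 mutant-only cells and at 5.53 ± 0.02 in DLD1 mutant-only cells (SD, n = 3 each).

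The genes with the largest deficit in HCT116 mutant-only cells included several of the intestinal epithelium. AGR2, a disulphide isomerase needed for mucin folding, had values of 5.62, 5.61 and 5.89 in HCT116 mutant-only cells, against 11.43, 11.73 and 11.12 in DLD1 mutant-only cells. TSPAN8, a membrane tetraspanin of digestive tract tumours, was 47.0-fold lower and CDH17, the cadherin of intestinal epithelium, 45.8-fold lower. The adhesion-related surface protein TM4SF1 was 55.0-fold lower and the glutathione transferase GSTM3 24.1-fold lower. TMEM52B and PRTFDC1, a paralogue of the purine salvage enzyme HPRT1, were 42.9-fold and 27.6-fold lower.

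**Figure D1:**
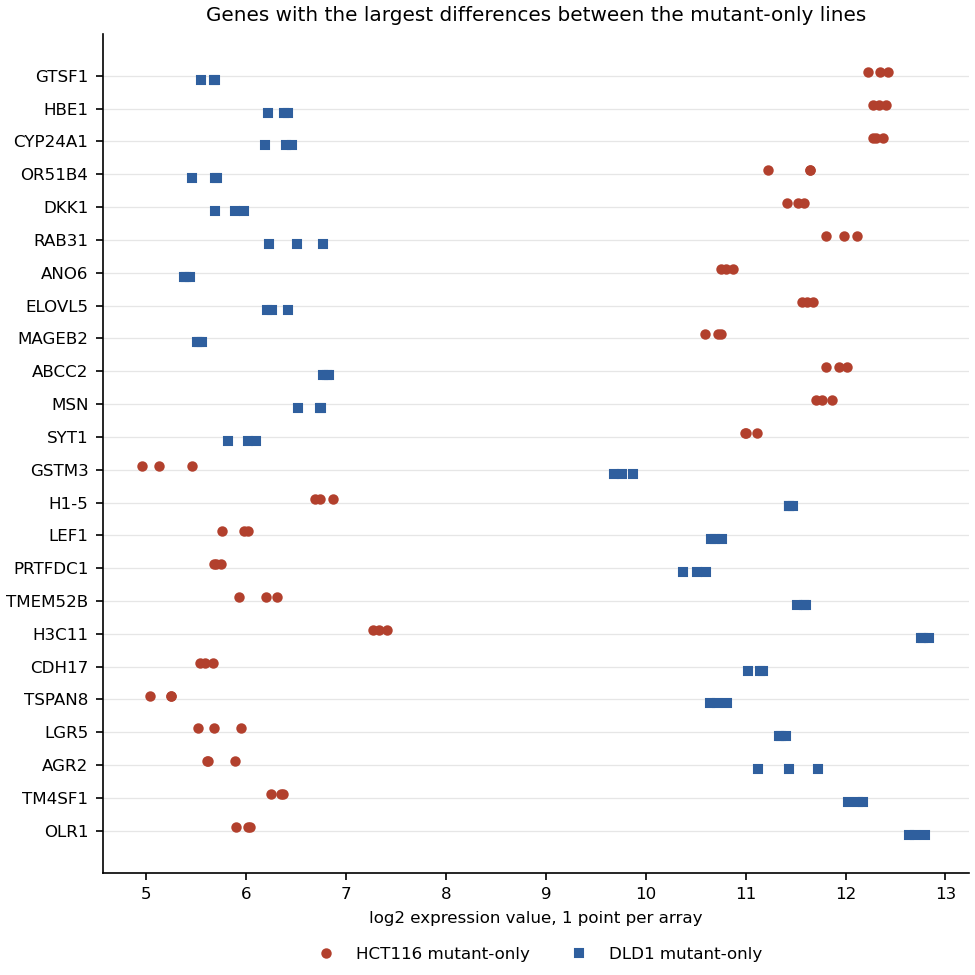
Log2 expression values (x axis) of the 12 genes with the largest excess and the 12 with the largest deficit in HCT116 mutant-only cells, 1 point per array, with HCT116 mutant-only as circles and DLD1 mutant-only as squares. For every gene the 3 HCT116 and the 3 DLD1 arrays form separate groups, from GTSF1 (12.33 against 5.64) to OLR1 (5.98 against 12.71).

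In wild-type-only cells 1477 genes (8.04%) were called between the lines, 685 (3.73%) higher and 792 (4.31%) lower in HCT116. Of the calls, 1178 were shared with the same direction, which is 78.4% of the mutant-only calls and 79.8% of the wild-type-only calls. At the adjusted p alone 1491 of the 1503 mutant-only calls passed in the same direction in wild-type-only cells. Across all genes the gaps of the genotypes had a Pearson r of 0.94, a description in which both gaps come from the same parental lines and the same probes. Only BDNF, CA2 and PTPRR among the called genes had gaps of opposite sign, with BDNF at 1.63 in mutant-only and -0.25 in wild-type-only cells, CA2 at -1.12 in mutant-only and 0.15 in wild-type-only cells, and PTPRR at -1.16 in mutant-only and 0.29 in wild-type-only cells. BDNF is a neurotrophin, CA2 a carbonic anhydrase of enterocytes and PTPRR a phosphatase of MAP kinases.

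The WNT pathway, in which β-catenin and TCF/LEF factors drive genes of intestinal stem cells, held members far apart in both directions. Of 27 measured WNT targets and stem cell genes, 4 were called higher and 6 lower in HCT116 mutant-only cells, against 3.86% and 4.32% of all genes. LGR5, the R-spondin receptor that marks intestinal stem cells, had values of 5.68, 5.51 and 5.94 in HCT116 mutant-only cells, against 11.36, 11.40 and 11.33 in DLD1 mutant-only cells. It was 50.3-fold lower in HCT116 (SE 0.137 on the log2 scale, limma adjusted p = 6.15e-13), and in wild-type-only cells its gap was -5.60.

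LEF1, a transcription factor that binds β-catenin, was at 5.92 ± 0.14 in HCT116 mutant-only cells and at 10.70 ± 0.05 in DLD1 mutant-only cells (SD, n = 3 each), 27.6-fold lower. AXIN2, a feedback inhibitor that is a standard WNT target, was 6.83-fold lower, and ASCL2, a stem cell transcription factor, 3.57-fold lower. TNFRSF19 and EPHB3, an ephrin receptor that positions crypt cells, were 2.28-fold and 2.12-fold lower. In the other direction stood DKK1, a secreted WNT inhibitor, with 11.42, 11.58 and 11.53 in HCT116 mutant-only cells, against 5.98, 5.69 and 5.88 in DLD1 mutant-only cells, 50.5-fold higher. The other higher members were LRIG1, an inhibitor of ERBB receptors, 2.65-fold, MSI1, an RNA-binding protein, 2.14-fold, and LRP4, a receptor of the LRP family, 2.03-fold. The gap of LRIG1 was 1.41 in mutant-only and 0.15 in wild-type-only cells, and this difference itself passed (1.25, limma adjusted p = 1.6e-05).

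Of 39 genes of intestinal differentiation, none was called higher and 5 were called lower, against 3.86% and 4.32% of all genes. At the limma adjusted p alone 3 were higher and 14 lower, where 24.3% and 26.3% of all genes passed. The median of the list was 0.03. CDX2, the transcription factor of intestinal identity, had values of 8.92, 8.89 and 8.81 in HCT116 mutant-only cells, against 10.57, 10.50 and 10.44 in DLD1 mutant-only cells, 3.10-fold lower. CDH17, GATA6, CA2 and KLF5 were the others. GATA6, an endodermal transcription factor, was 2.18-fold lower, and KLF5, a factor of proliferating crypt cells, 2.14-fold.

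Among 34 mucin and secretory lineage genes 3 were higher and 5 lower, against 3.86% and 4.32% of all genes. The membrane mucin MUC13 had values of 5.41, 5.63 and 5.60 in HCT116 mutant-only cells, against 8.86, 9.09 and 9.05 in DLD1 mutant-only cells, 10.9-fold lower. Its gap was wider in mutant-only (-3.45) than in wild-type-only cells (-1.96), a difference of -1.49 (limma adjusted p = 3e-06). MUC20 was 3.68-fold lower, GALNT3, which starts O-linked sugar chains, 2.97-fold, and TFF3, a peptide secreted by goblet cells, lay just past the 2-fold limit. MUC12 and MUC3A, membrane mucins of 1 gene cluster with related repeats, were 3.58-fold and 2.20-fold higher, and how signal divides between such genes is uncertain. The other probe sets of MUC12 differed by 1.59 and 0.31 on the log2 scale, against 1.84 for the one used. SCG2, a granin of secretory granules, was 3.09-fold higher, with a gap of 1.63 in mutant-only and 3.77 in wild-type-only cells (difference -2.14, limma adjusted p = 1.6e-07).

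The junction genes differed in which adhesion proteins were high. Of 40 measured, 3 were higher and 7 lower in HCT116 mutant-only cells, against 3.86% and 4.32% of all genes. CDH1, E-cadherin, was at 11.05 ± 0.04 in HCT116 mutant-only cells and at 12.66 ± 0.05 in DLD1 mutant-only cells (SD, n = 3 each). It was 3.04-fold lower in HCT116 (SE 0.0490 on the log2 scale, limma adjusted p = 6.05e-12) and stood above the array medians of 7.42 to 7.53 in both lines. CLDN1, a tight junction claudin, was 6.91-fold lower, PKP2, a desmosomal plakophilin, 2.85-fold lower, and ESRP2, an epithelial splicing factor, 2.54-fold lower. EHF, an epithelial ETS factor, was 3.08-fold lower, with a gap of -1.62 in mutant-only and -3.38 in wild-type-only cells, and this difference passed (1.76, limma adjusted p = 1.6e-05). GRHL3, a transcription factor of barrier epithelia, was at 6.88 ± 0.10 in HCT116 mutant-only cells and at 10.03 ± 0.03 in DLD1 mutant-only cells (SD, n = 3 each).

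Among desmosomal cadherins DSC2 and DSC3 were called higher, whereas DSG2 and DSG3 differed by 0.26 and -0.05 and were not called. DSC2 was at 10.72, 10.74 and 10.74 in HCT116 mutant-only cells, against 7.14, 7.14 and 7.34 in DLD1 mutant-only cells, 11.5-fold higher, and its neighbour DSC3 was 10.1-fold higher. CDH3, P-cadherin, whose gene lies next to CDH1, was 2.10-fold higher. Of 14 keratins 2 were called higher and 1 lower, against 3.86% and 4.32% of all genes. KRT23 was 29.3-fold and KRT15 2.17-fold higher, whereas KRT80 was 3.64-fold lower. KRT18 and KRT19, keratins of simple epithelia, were within 2-fold.

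Of 37 mesenchymal genes, a list of contractile, matrix and motility genes, 10 were called higher in HCT116 mutant-only cells, against the 3.86% of all genes, and 2 lower. The median difference of the list was 0.34. In wild-type-only cells 7 were called higher and 1 lower, against 3.73% and 4.31% of all genes, and the median was 0.09. TPM2, a tropomyosin of contractile actin filaments, had values of 10.70, 10.68 and 10.52 in HCT116 mutant-only cells, against 7.27, 7.56 and 7.20 in DLD1 mutant-only cells, 9.79-fold higher. S100A4, a calcium-binding protein linked to motility, was 7.45-fold higher and PXDN, a peroxidase that crosslinks collagen IV, 5.28-fold. AXL, COL6A1, CAV1, LOXL2, CALD1, FN1 and MYL9 made up the rest, between 2.14-fold and 4.29-fold higher. The 25 members not called included VIM (0.38), ZEB1 (0.71), ZEB2 (-0.01), SNAI1 (0.40), SNAI2 (0.38), TWIST1 (0.37) and CDH2 (-0.60). TNC, a matrix glycoprotein, was 6.02-fold lower in HCT116, and its arrays scattered in DLD1 mutant-only cells (9.45, 8.48 and 9.12). NT5E, the CD73 nucleotidase, was 3.07-fold lower, with a gap of -1.62 in mutant-only and -0.35 in wild-type-only cells (difference -1.27, limma adjusted p = 4e-05).

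PXDN was at 8.96 ± 0.18 in HCT116 mutant-only cells, 6.56 ± 0.13 in DLD1 mutant-only cells, 7.44 ± 0.05 in HCT116 wild-type-only cells and 6.66 ± 0.04 in DLD1 wild-type-only cells (SD, n = 3 each). The line gap of PXDN was thus wider in mutant-only cells by 1.62 (limma adjusted p = 3e-06). The fibroblast collagens COL1A2 and COL3A1 differed by -0.01 and -0.07 and did not pass, and COL1A1 differed by 0.39.

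Of 35 genes of matrix proteases and the plasminogen system, 5 were called higher and 1 lower, against 3.86% and 4.32% of all genes. In wild-type-only cells 4 were called higher and 5 lower, against 3.73% and 4.31% of all genes. PLAU, the urokinase that activates plasminogen, had values of 10.13, 9.78 and 9.78 in HCT116 mutant-only cells, against 7.80, 7.79 and 7.69 in DLD1 mutant-only cells, 4.39-fold higher. TFPI, an inhibitor of tissue factor, was 4.70-fold higher, while F3, tissue factor itself, was 2.44-fold lower. The inhibitors SERPINE2 and SERPINB5 were 3.41-fold and 2.38-fold higher. PLAT, the tissue plasminogen activator, was 2.88-fold higher, with a narrower gap in mutant-only (1.52) than in wild-type-only cells (3.37; difference -1.84, limma adjusted p = 0.00015).

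Of 30 integrins and adhesion receptors 3 were higher and 3 lower, against 3.86% and 4.32% of all genes. CD44 had values of 12.98, 12.97 and 12.89 in HCT116 mutant-only cells, against 9.39, 9.18 and 9.31 in DLD1 mutant-only cells. Its gap of 3.65 exceeded the 2.60 of wild-type-only cells by 1.05 (limma adjusted p = 2.1e-05). ITGB4, the integrin of hemidesmosomes, was 2.06-fold higher and L1CAM, a neural adhesion molecule, 2.03-fold. TSPAN8, ITGA9 and ICAM1 were lower.

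**Figure D2:**
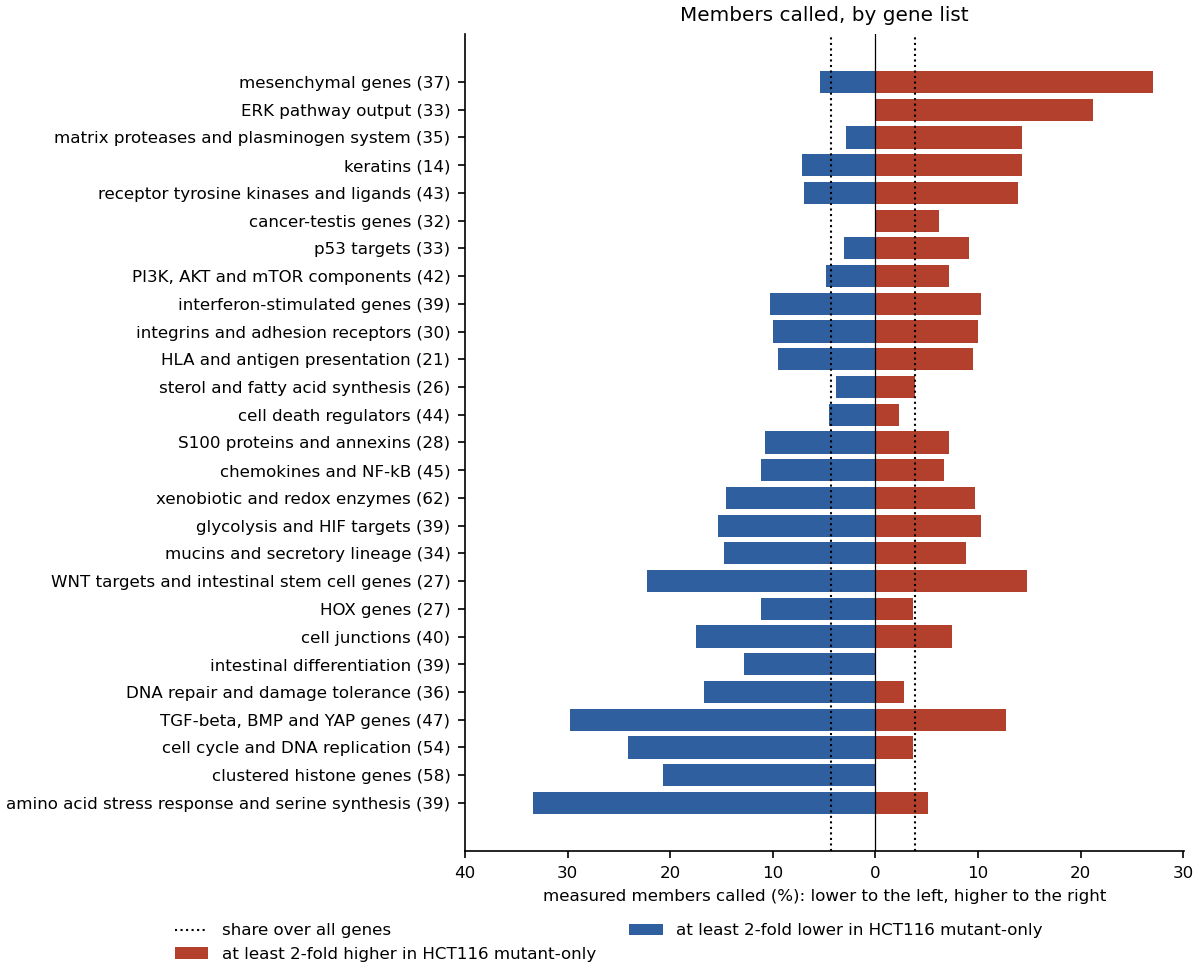
Percent of the measured members of each gene list called higher (right) or lower (left) in HCT116 mutant-only cells, with the number measured in brackets and dotted lines at the shares over all genes (3.86% higher, 4.32% lower). Mesenchymal genes and ERK pathway output extend furthest to the right, and amino acid stress genes and TGF-beta, BMP and YAP genes furthest to the left.

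The ERK pathway carries growth signals from RAS, and its activity is read from feedback phosphatases, Sprouty proteins and ETS factors that it induces. Of 33 such output genes, 7 were called higher in HCT116 mutant-only cells and none lower, against 3.86% and 4.32% of all genes. At the limma adjusted p alone 18 were higher and 7 lower, against 24.3% and 26.3% of all genes. The median was 0.21 in mutant-only and in wild-type-only cells alike. In wild-type-only cells 9 were called higher, against 3.73% of all genes. DUSP4, a nuclear phosphatase of ERK, had values of 9.78, 9.54 and 9.80 in HCT116 mutant-only cells, against 6.99, 7.07 and 7.21 in DLD1 mutant-only cells, 6.12-fold higher (limma adjusted p = 4.41e-09). In wild-type-only cells the gap of DUSP4 was 2.37.

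SPRY4, a Sprouty inhibitor of receptor signalling, was at 10.20 ± 0.07 in HCT116 mutant-only cells and at 8.33 ± 0.04 in DLD1 mutant-only cells (SD, n = 3 each), 3.66-fold higher. The PEA3-type factors ETV1 and ETV5 were 3.34-fold and 2.19-fold higher, IER3 2.95-fold, NR4A2 2.73-fold and the phosphatase DUSP5 2.38-fold. The other 26 members were not called. Of the same families, DUSP6 and ETV4 differed by 0.45 and 0.17, and DUSP8, SPRY1 and SPRY2 by -0.92, -0.74 and -0.72. NR4A2, an orphan nuclear receptor and immediate early gene, had a gap of 1.45 in mutant-only and 3.62 in wild-type-only cells (difference -2.17, limma adjusted p = 3e-06).

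Receptor tyrosine kinases and ligands were called in both directions. Of 43 measured, 6 were higher and 3 lower, against 3.86% and 4.32% of all genes, and the list median was -0.03. KIT, the stem cell factor receptor, was at 5.98 ± 0.03 in HCT116 mutant-only cells and at 10.43 ± 0.15 in DLD1 mutant-only cells (SD, n = 3 each), 21.8-fold lower (limma adjusted p = 1.91e-13), with gaps of -4.45 in mutant-only and -4.47 in wild-type-only cells. ROR1, a WNT5A receptor, was 2.61-fold lower and the EGFR ligand TGFA 2.16-fold lower. AXL, the GAS6 receptor, was at 9.69, 9.68 and 9.72 in HCT116 mutant-only cells, against 7.67, 7.61 and 7.50 in DLD1 mutant-only cells, 4.29-fold higher. FGFR4 and its hormone-like ligand FGF19 were 3.45-fold and 3.06-fold higher, MET, the hepatocyte growth factor receptor, 2.43-fold, PDGFA 2.42-fold and INSR, the insulin receptor, 2.20-fold.

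Of 42 PI3K, AKT and mTOR components 3 were higher and 2 lower, where 3.86% and 4.32% of all genes were called. After quantile normalization, and also after median centring, 3 were called lower. SESN3, a stress-induced brake on mTORC1, had values of 8.52, 8.52 and 8.45 in HCT116 mutant-only cells, against 6.79, 6.17 and 6.73 in DLD1 mutant-only cells, 3.81-fold higher. DEPTOR, an inhibitor bound to mTOR, was 2.98-fold higher and FOXO4, a transcription factor that AKT keeps out of the nucleus, 2.63-fold. PHLPP2, a phosphatase that removes a phosphate from AKT, was 2.31-fold lower and PIK3C2B, a class II PI3K, 2.10-fold lower. For SESN3 the gap was wider in mutant-only (1.93) than in wild-type-only cells (0.95), a difference of 0.99 (limma adjusted p = 0.013).

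Of 47 genes of TGF-beta and BMP signalling and of the YAP pathway, 6 were called higher and 14 lower, against 3.86% and 4.32% of all genes, with a median of -0.28. TGF-beta and BMP ligands signal through SMAD factors, and YAP and its paralogue WWTR1 act with TEAD factors in response to cell shape and contact. TGFB2, a TGF-beta ligand, had values of 6.18, 6.37 and 6.34 in HCT116 mutant-only cells, against 10.66, 10.64 and 10.72 in DLD1 mutant-only cells, 20.7-fold lower. TGFBI, a matrix protein named for its induction by TGF-beta, had a log2 difference of -3.46. SMAD7, the inhibitory SMAD, was 3.86-fold lower, LTBP1, which stores the ligand in the matrix, 4.10-fold, and the co-receptor TGFBR3 2.48-fold. BMP4 and BMP2 were 2.29-fold and 2.23-fold lower, whereas BMP7 was 2.22-fold higher.

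ID1 and ID3, inhibitors of helix-loop-helix factors and standard BMP targets, were 3.18-fold and 2.66-fold higher in HCT116 mutant-only cells. Of genes known to be induced by YAP, CCN1, CCN2, ANKRD1, AMOTL2, AJUBA and CRIM1 were lower by 2.64-fold to 4.85-fold, and VGLL3, a relative of the TEAD cofactor VGLL1, by 5.45-fold. CCN1, a secreted matricellular protein, had 7.83, 8.07 and 7.84 in HCT116 mutant-only cells, against 10.18, 10.22 and 10.20 in DLD1 mutant-only cells. The cofactor WWTR1 itself was at 9.99 ± 0.13 in HCT116 mutant-only cells and at 7.19 ± 0.04 in DLD1 mutant-only cells (SD, n = 3 each), 6.97-fold higher, and TEAD2 was 2.37-fold higher. AXL, which YAP also induces, was the other higher member, and LATS2 differed by -0.74, under the 2-fold limit.

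In this list the line gap differed between genotypes for 15 members, above 0 for 14 and below 0 for 1, where 3.68% and 3.43% of all genes were called. ANKRD1, a muscle-type repeat protein induced by YAP, was at 6.23 ± 0.10 in HCT116 mutant-only cells, 8.33 ± 0.10 in DLD1 mutant-only cells, 6.17 ± 0.11 in HCT116 wild-type-only cells and 9.93 ± 0.20 in DLD1 wild-type-only cells (SD, n = 3 each). Its gap of -2.10 in mutant-only cells was narrower than the -3.76 of wild-type-only cells (difference 1.65, limma adjusted p = 7.6e-06). For ID1 and ID3 the gaps were wider, 1.67 in mutant-only and 0.85 in wild-type-only cells for ID1, and 1.41 in mutant-only and 0.50 in wild-type-only cells for ID3.

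Most targets of p53, the stress-activated tumour suppressor, differed by less than 2-fold, and some by far more. Of 33 measured, 3 were called higher and 1 lower, against 3.86% and 4.32% of all genes. At the adjusted p alone 22 were higher and 6 lower, where 24.3% and 26.3% of all genes were called. CDKN1A, the p21 inhibitor of cyclin-dependent kinases, had values of 10.15, 9.98 and 9.82 in HCT116 mutant-only cells, against 8.08, 8.03 and 7.76 in DLD1 mutant-only cells, 4.07-fold higher (limma adjusted p = 2.59e-10). TP53INP1, a p53-induced cofactor, had 10.41, 10.45 and 10.38 in HCT116 mutant-only cells, against 6.30, 6.23 and 6.39 in DLD1 mutant-only cells, 17.2-fold higher.

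RRM2B, a ribonucleotide reductase subunit induced by p53, was 2.37-fold higher, and TIGAR, a phosphatase that lowers glycolytic flux, 2.45-fold lower. MDM2, the ubiquitin ligase of p53, differed by 0.67, under the 2-fold limit. The median of the list was 0.35 in mutant-only and 0.10 in wild-type-only cells, and the gap differed between genotypes for 11 members, all with a positive difference, a direction called for 3.68% of all genes. CDKN1A was among them, with gaps of 2.03 in mutant-only and 1.27 in wild-type-only cells (difference 0.76, limma adjusted p = 0.0023).

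Of 54 measured genes of the cell cycle and DNA replication, 13 were called lower and 2 higher in HCT116 mutant-only cells, against 4.32% and 3.86% of all genes, and 39 were not called. At the adjusted p alone 37 were lower and 5 higher, against 26.3% and 24.3% of all genes, and the median was -0.57. CDC6, which loads the replicative helicase, had values of 9.93, 9.55 and 9.89 in HCT116 mutant-only cells, against 11.58, 11.41 and 11.49 in DLD1 mutant-only cells, 3.26-fold lower. MCM10, a replication fork factor, was 3.13-fold lower, CCNE2, cyclin E2, 3.12-fold, TOP2A, the mitotic topoisomerase, 2.39-fold, and RRM2, a ribonucleotide reductase subunit, 2.38-fold. Cyclin E1 (CCNE1), the origin factor ORC1, the helicase subunit MCM6, RBL1, CDKN3, E2F7 and E2F8 were the other lower members, at 2.06-fold to 2.79-fold.

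FOXM1, a transcription factor of mitotic genes, was at 10.46 ± 0.22 in HCT116 mutant-only cells and at 11.53 ± 0.08 in DLD1 mutant-only cells (SD, n = 3 each). The 2 higher members were inhibitors of the cycle, CDKN1A and CDKN2A. CDKN2A, which encodes p16 and ARF, had values of 10.04, 10.14 and 9.73 in HCT116 mutant-only cells, against 7.55, 7.51 and 7.38 in DLD1 mutant-only cells, 5.63-fold higher. In wild-type-only cells the counts were 12 lower and 2 higher, against 4.31% and 3.73% of all genes, and the median -0.55.

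Of 36 genes of DNA repair and damage tolerance 6 were called lower and 1 higher, against 4.32% and 3.86% of all genes, with a median of -0.28. MSH3, a mismatch repair protein, had 8.39, 8.53 and 8.37 in HCT116 mutant-only cells, against 10.35, 10.34 and 10.47 in DLD1 mutant-only cells, 3.88-fold lower, with the same gap in wild-type-only cells (-1.94). BRCA1, of recombination repair, was 3.52-fold lower and EXO1, a mismatch repair exonuclease, 3.25-fold. RAD18, the checkpoint kinase ATR and PCNA, the sliding clamp, were lower by 2.04-fold to 2.23-fold. HLTF, a helicase-like factor of damage tolerance, was higher and is described with the genotype differences.

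Core histone genes lie in clusters and are transcribed in S phase, and they came to attention after values were seen, through a run of neighbouring genes. Of 58 measured histone genes of the numbered H1, H2A, H2B, H3 and H4 series, 12 were called lower in HCT116 mutant-only cells and none higher, against 4.32% and 3.86% of all genes. At the limma adjusted p alone 45 were lower and 3 higher, against 26.3% and 24.3% of all genes, and the median was -0.54. H3C11, encoding histone H3, had values of 7.27, 7.33 and 7.41 in HCT116 mutant-only cells, against 12.84, 12.76 and 12.78 in DLD1 mutant-only cells, 43.8-fold lower. H1-5, a linker histone, had 6.68, 6.74 and 6.87 in HCT116 mutant-only cells, against 11.47, 11.44 and 11.43 in DLD1 mutant-only cells, 25.6-fold lower.

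H4C13, encoding histone H4, was 11.4-fold lower, and H2AC16, encoding H2A, 2.07-fold lower. These 4 genes are consecutive measured genes in the annotation's order. H2AC16 differed by -1.05, and by -0.99 without DLD1 mutant-only replicate 1, under the 2-fold limit. Without its call the run falls short of 4 genes. H3C7, H2BC9, H4C8, H1-3, H3C2, H2BC7, H4C9 and H2BC11 were the remaining lower members, at 2.03-fold to 6.32-fold. Core histone genes have near-identical copies, so the assignment of signal to a single copy is uncertain. In wild-type-only cells the gaps of these 12 genes lay between -4.98 and -0.74. There 10 histone genes were called lower, against 4.31% of all genes.

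Promoters were matched for 3 of the 4 genes of the run, all but H3C11, and those of H1-5 and H4C13 are shown because these genes had larger differences than H2AC16. The letters searched, on both strands, were the CCAAT box, the TATAAA box and the octamer ATTTGCAT, which OCT1 binds. CCAAT was found in 46 of 53 histone promoters with a sequence and in 35.7% of 27305 promoters in the table, TATAAA in 35 of 53 and 12%, and ATTTGCAT in 23 of 53 and 1.8%. The sequences are RefSeq's, of GRCh38.p14, with capitals marking a motif in either orientation. The H1-5 promoter is chr6:27867539-27867838 on the minus strand and the H4C13 promoter chr6:27873485-27873784 on the minus strand, each reaching 50 bases into the gene.
H1-5: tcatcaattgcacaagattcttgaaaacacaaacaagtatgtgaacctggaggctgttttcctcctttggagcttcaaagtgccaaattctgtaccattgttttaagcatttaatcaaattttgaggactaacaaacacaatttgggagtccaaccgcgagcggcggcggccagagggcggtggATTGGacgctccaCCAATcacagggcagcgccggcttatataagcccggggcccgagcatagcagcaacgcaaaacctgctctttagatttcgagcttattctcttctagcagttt
H4C13: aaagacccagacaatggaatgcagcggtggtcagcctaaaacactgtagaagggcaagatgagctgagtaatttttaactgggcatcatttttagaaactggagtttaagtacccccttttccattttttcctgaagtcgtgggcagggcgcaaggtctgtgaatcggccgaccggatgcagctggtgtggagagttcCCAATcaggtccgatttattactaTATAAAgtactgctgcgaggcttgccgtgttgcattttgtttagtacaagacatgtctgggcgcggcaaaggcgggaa

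The H1-5 promoter holds the CCAAT box at 2 places, in opposite orientations, and the H4C13 promoter holds a CCAAT box and a TATAAA box. The H2AC16 promoter, not shown, holds the CCAAT box at 3 places and the octamer at 1. These matches are descriptions of the sequence in the reference genome and were not tied to the difference between the lines.

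**Figure D3:**
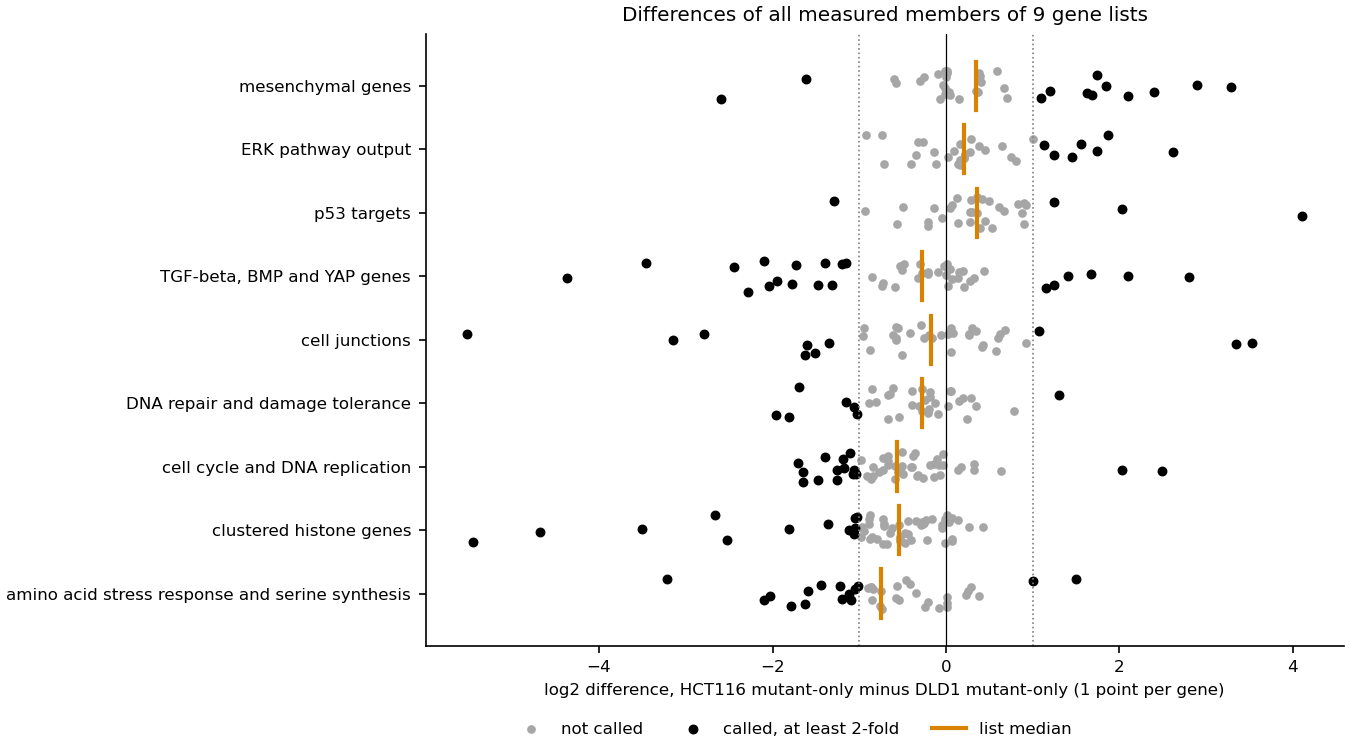
Log2 differences (x axis, HCT116 mutant-only minus DLD1 mutant-only) of every measured member of 9 gene lists, 1 point per gene, black where called at 2-fold or more, with the list median as a bar and dotted lines at a 2-fold difference. The medians run from 0.35 for p53 targets to -0.75 for amino acid stress genes, and each list also holds members on the other side of 0.

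Amino acid stress and serine synthesis genes include many that the factor ATF4 induces when amino acids are short. Of 39 measured, 13 were called lower and 2 higher in HCT116 mutant-only cells, against 4.32% and 3.86% of all genes, and 24 were not called. At the adjusted p alone 28 were lower and 5 higher, against 26.3% and 24.3% of all genes, and the median was -0.75. SLC1A4, a neutral amino acid transporter, had values of 7.45, 7.25 and 7.38 in HCT116 mutant-only cells, against 10.63, 10.61 and 10.49 in DLD1 mutant-only cells, 9.26-fold lower (limma adjusted p = 5.95e-12), and its gap in wild-type-only cells was -2.81. VLDLR, a lipoprotein receptor, was 4.28-fold lower, CHAC1, which degrades glutathione, 4.10-fold, TRIB3, a pseudokinase of the stress response, 3.44-fold, and ASNS, asparagine synthetase, 2.17-fold. SLC7A11, SLC7A1, SLC6A9, WARS1, PCK2 and ALDH1L1 were lower by 2.07-fold to 3.02-fold.

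Along the serine pathway PHGDH, which commits a glycolytic intermediate to serine, had 11.41, 11.25 and 11.35 in HCT116 mutant-only cells, against 12.32, 12.46 and 12.26 in DLD1 mutant-only cells, 2.02-fold lower. PSAT1, the next enzyme, was 3.09-fold lower. STC2, a secreted glycoprotein, was 2.84-fold higher in HCT116 mutant-only cells and SLC38A2, a glutamine transporter, 2.01-fold higher. In wild-type-only cells 10 members were called lower and 2 higher, against 4.31% and 3.73% of all genes, and the median was -0.52.

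Of 39 glycolysis genes and targets of hypoxia-inducible factors 4 were called higher and 6 lower, against 3.86% and 4.32% of all genes. In wild-type-only cells 4 were called higher and 2 lower, against 3.73% and 4.31% of all genes. BNIP3, a mitochondrial protein of mitophagy, had values of 10.68, 10.77 and 10.73 in HCT116 mutant-only cells, against 6.13, 6.08 and 6.11 in DLD1 mutant-only cells, 24.6-fold higher (limma adjusted p = 9.81e-16), and its gap in wild-type-only cells was 4.86. ALDOC, an aldolase, was 8.99-fold higher, NDRG1, a stress-induced protein, 3.12-fold, and ADM, the peptide hormone adrenomedullin, 2.29-fold. The glucose transporters SLC2A3 and SLC2A1 were 4.89-fold and 2.24-fold lower, HK2, hexokinase, 3.20-fold and PDK1, which restrains pyruvate oxidation, 2.08-fold lower. PFKFB2 and P4HA2, a collagen hydroxylase, were 2.05-fold and 2.06-fold lower.

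Of 26 genes of sterol and fatty acid synthesis 1 was higher and 1 lower, against 3.86% and 4.32% of all genes. At the limma adjusted p alone 9 were higher and 15 lower, where 24.3% and 26.3% of all genes passed. The list median was -0.33. FADS1, a desaturase of the pathway in which ELOVL5 acts, had 11.21, 11.23 and 11.15 in HCT116 mutant-only cells, against 8.50, 8.55 and 8.59 in DLD1 mutant-only cells, 6.29-fold higher. HMGCS1, an early enzyme of cholesterol synthesis, was at 10.45 ± 0.28 in HCT116 mutant-only cells and at 12.01 ± 0.01 in DLD1 mutant-only cells (SD, n = 3 each), 2.95-fold lower.

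Of 62 genes of drug and redox metabolism 6 were higher and 9 lower, against 3.86% and 4.32% of all genes. After CYP24A1 and ABCC2, the higher ones were the aldehyde dehydrogenase ALDH1A3 (7.41-fold), the monoamine oxidases MAOB (6.28-fold) and MAOA (4.23-fold), and GSTA4, just past the 2-fold limit. ABCB1, the drug efflux pump P-glycoprotein, had 6.60, 6.62 and 6.59 in HCT116 mutant-only cells, against 9.72, 9.42 and 9.80 in DLD1 mutant-only cells, 8.22-fold lower. The glutathione transferases GSTM3 and GSTT1 were 24.1-fold and 4.93-fold lower, and the cytochromes CYP2J2 and CYP1B1 7.51-fold and 3.78-fold. QPRT, ALDH3A1, GPX3 and SLC7A11, the cystine transporter, were lower too. After quantile normalization 5 members were called higher and 8 lower, and after median centring 5 higher and 9 lower.

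Antigen presentation genes gave 2 higher and 2 lower calls of 21, and interferon-stimulated genes 4 higher and 4 lower of 39. Over all genes 3.86% were called higher and 4.32% lower. After quantile normalization, and also after median centring, interferon-stimulated genes gave 3 higher and 4 lower calls. Of 21 measured genes of antigen presentation B2M, the light chain of class I molecules, was at 11.40, 11.45 and 10.86 in HCT116 mutant-only cells, against 9.40, 9.28 and 8.88 in DLD1 mutant-only cells, 4.12-fold higher. HLA-DPA1 was 2.89-fold higher, while ERAP2, a peptide-trimming enzyme, was 7.72-fold lower and PSMB8, an immunoproteasome subunit, 2.77-fold lower. Of 39 interferon-stimulated genes IFI35, STING1, the adaptor for cytosolic DNA sensing, IFITM1 and DDX60 were higher by 2.04-fold to 3.18-fold. OAS1, MX2, PARP14 and OAS3 were lower by 2.26-fold to 3.58-fold.

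Chemokine and NF-kB genes numbered 3 higher and 5 lower of 45, against 3.86% and 4.32% of all genes. LIFR, the receptor of leukaemia inhibitory factor, had 8.64, 8.81 and 8.64 in HCT116 mutant-only cells, against 5.46, 5.48 and 5.47 in DLD1 mutant-only cells, 9.37-fold higher. CXCL5, a neutrophil chemokine, had 7.67, 7.64 and 7.66 in HCT116 mutant-only cells, against 10.72, 10.93 and 10.94 in DLD1 mutant-only cells, 9.24-fold lower. Its gap was wider in mutant-only (-3.21) than in wild-type-only cells (-1.98; difference -1.23, limma adjusted p = 0.00032). The same held for CCL26, an eosinophil chemokine, with -2.17 in mutant-only and -0.80 in wild-type-only cells. The alarmin IL33 was 6.33-fold lower, IL1RN, an interleukin 1 antagonist, 3.73-fold and TNFSF10, the death ligand TRAIL, 2.52-fold. TNFAIP2 was 2.39-fold higher, and GPR15 was the third higher member.

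Of 44 regulators of cell death 1 was called higher and 2 lower, against 3.86% and 4.32% of all genes. GSDME, a pore-forming gasdermin, had 9.03, 8.93 and 9.09 in HCT116 mutant-only cells, against 6.10, 6.13 and 6.13 in DLD1 mutant-only cells, 7.44-fold higher. CASP10 and BCL2L14 were 2.50-fold and 2.15-fold lower. Of 28 S100 and annexin genes S100A4 and S100A3 were called higher, and S100P, ANXA9 and S100A10 lower, S100P by 3.57-fold, against 3.86% and 4.32% of all genes. ANXA9 differed by -1.10, and by -0.97 without DLD1 mutant-only replicate 2, under the 2-fold limit. Of 32 cancer-testis genes MAGEB2 and PRAME were called higher and none lower, against 3.86% and 4.32% of all genes. PRAME was 5.35-fold higher.

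HOX genes, which record position along the body axis, gave 1 higher and 3 lower calls of 27, against 3.86% and 4.32% of all genes. HOXB3 had 8.29, 8.06 and 7.90 in HCT116 mutant-only cells, against 10.23, 10.36 and 10.20 in DLD1 mutant-only cells, 4.53-fold lower. HOXB9 was 3.49-fold and HOXA2 3.10-fold lower, and HOXC9 was 3.47-fold higher. Of the 10 measured HOXB genes 2 were called, and none of the 9 HOXD genes, where 8.18% of all genes were called in either direction.

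The microRNA genes MIR10A and MIR196A1, which lie within the HOXB cluster, were lower as well. Of 173 measured microRNA genes 4 were called higher and 2 lower, shares under those of all genes, and the 6 were named after their values were seen. The array's probes read transcript from the locus, in part the hairpin or its host, and not the mature arm. MIR10A had 5.16, 5.17 and 5.14 in HCT116 mutant-only cells, against 7.74, 7.65 and 7.01 in DLD1 mutant-only cells, 4.95-fold lower, and MIR196A1 was 2.48-fold lower. MIRLET7A2, MIR221, MIR15A and MIR21 were 3.58-fold, 2.83-fold, 2.79-fold and 2.06-fold higher, with array SDs of up to 0.47.

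An arm of each is shown so that the targets these loci could reach can be read from the seed, bases 2 to 8, in capitals. Positions are of GRCh38.p14 and the sequences RefSeq's. They lie at chr17:48579904-48579926 (minus strand) for miR-10a-5p, chr17:48632532-48632553 (minus) for miR-196a-5p, chr11:122146568-122146589 (minus) for let-7a-5p, chrX:45746180-45746202 (minus) for miR-221-3p, chr13:50049167-50049188 (minus) for miR-15a-5p and chr17:59841273-59841294 (plus) for miR-21-5p. No seed is shared among them.
hsa-miR-10a-5p: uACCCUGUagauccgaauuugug
hsa-miR-196a-5p: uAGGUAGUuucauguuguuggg
hsa-let-7a-5p: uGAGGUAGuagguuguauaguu
hsa-miR-221-3p: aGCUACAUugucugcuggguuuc
hsa-miR-15a-5p: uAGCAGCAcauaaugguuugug
hsa-miR-21-5p: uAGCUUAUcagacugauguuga

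Besides the histone run, 3 runs of 4 consecutive measured genes were called in a single direction, all higher in HCT116 mutant-only cells. The run at the β-globin locus was HBE1, the embryonic globin, with the olfactory receptor genes OR51B4, OR51B2 and OR51B5. HBE1 had 12.33, 12.27 and 12.41 in HCT116 mutant-only cells, against 6.22, 6.37 and 6.41 in DLD1 mutant-only cells, 64.1-fold higher. OR51B4 was 59.1-fold, OR51B2 12.1-fold and OR51B5 10.3-fold higher. These genes are neighbours on chromosome 11, and whether their probes read separate transcripts was not tested.

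The other runs were COX15, CUTC, ABCC2 and DNMBP, and GPR15, CPOX, ST3GAL6 and DCBLD2. In the first of these ABCC2 was 34.7-fold higher and its neighbours 2.17-fold to 3.11-fold. In the second DCBLD2, a neuropilin-like receptor, was 4.34-fold higher, ST3GAL6, a sialyltransferase, 8.86-fold, and CPOX, an enzyme of haem synthesis, 2.46-fold.

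The test of mutant-only gap minus wild-type-only gap was passed at the limma adjusted p by 1307 genes (7.11%). The difference was positive for 677 (3.68%) and negative for 630 (3.43%). With the replicate number as a block, the count was 2120, which included all 1307. Of the 1307, 604 had a narrower and 703 a wider gap in mutant-only cells, and 365 were among the 2-fold calls of mutant-only cells. By its arithmetic the difference of gaps equals the change from wild-type-only to mutant-only cells in HCT116 minus that in DLD1. Within each cell line the allele kept and the derived line change together, so a part due to the allele alone was not tested.

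**Figure D4:**
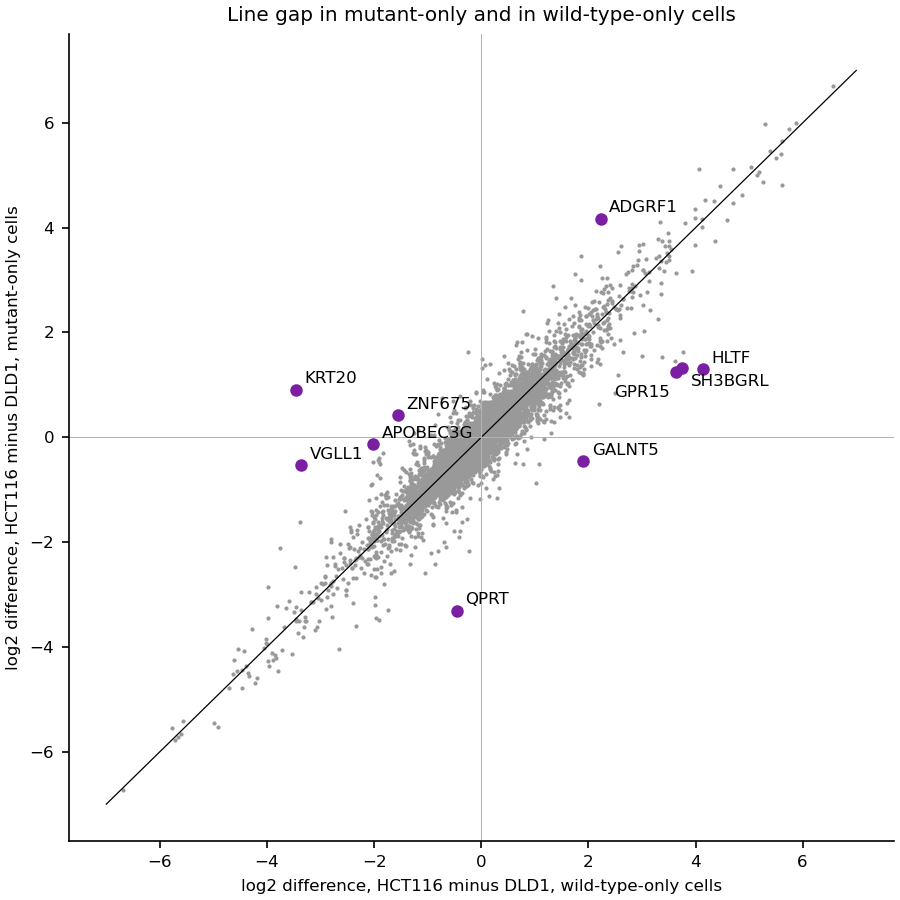
Line gap of each gene (log2, HCT116 minus DLD1) in mutant-only cells (y axis) and in wild-type-only cells (x axis), with the line of equal gaps and the 10 genes with the largest differences marked. Most genes lie along the line (Pearson r 0.94), and KRT20 and QPRT are among those farthest from it.

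KRT20, the keratin of differentiated colonic epithelium, had 7.72, 7.59 and 7.75 in HCT116 mutant-only cells and 6.65, 6.75 and 6.93 in DLD1 mutant-only cells, against 10.92 ± 0.06 in DLD1 wild-type-only cells (SD, n = 3). Its gap was therefore 0.91 in mutant-only and -3.46 in wild-type-only cells. QPRT, an enzyme of NAD synthesis, had 7.97, 7.87 and 8.16 in HCT116 mutant-only cells, against 11.11, 11.43 and 11.39 in DLD1 mutant-only cells, 9.91-fold lower. In wild-type-only cells QPRT was at 8.01 ± 0.27 in HCT116 and at 8.47 ± 0.30 in DLD1 (SD, n = 3 each), a gap of -0.45.

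For ADGRF1, an adhesion G protein-coupled receptor, the gap was wide in both genotypes and wider in mutant-only cells. It had 11.76, 11.87 and 11.93 in HCT116 mutant-only cells, against 7.74, 7.97 and 7.33 in DLD1 mutant-only cells, and the gap was 4.17 in mutant-only and 2.23 in wild-type-only cells. HLTF had 10.65, 10.78 and 10.71 in HCT116 mutant-only cells, against 9.32, 9.30 and 9.62 in DLD1 mutant-only cells, 2.47-fold higher. In DLD1 wild-type-only cells HLTF stood at 6.52 ± 0.15, and the gap there was 4.14.

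For SH3BGRL the gap was also narrower in mutant-only cells, with gaps of 1.33 in mutant-only and 3.76 in wild-type-only cells. GPR15, a chemoattractant receptor, was at 6.96 ± 0.23 in HCT116 mutant-only cells and 5.71 ± 0.10 in DLD1 mutant-only cells, and at 9.34 ± 0.20 in HCT116 wild-type-only cells and 5.70 ± 0.23 in DLD1 wild-type-only cells (SD, n = 3 each). GALNT5, another starter of O-linked sugars, had gaps of -0.45 in mutant-only and 1.91 in wild-type-only cells. For VGLL1, a TEAD cofactor, the gap was -0.53 in mutant-only and -3.36 in wild-type-only cells. For the cytidine deaminase APOBEC3G it was -0.13 in mutant-only and -2.02 in wild-type-only cells, and for ZNF675 0.42 in mutant-only and -1.55 in wild-type-only cells.

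**Figure D5:**
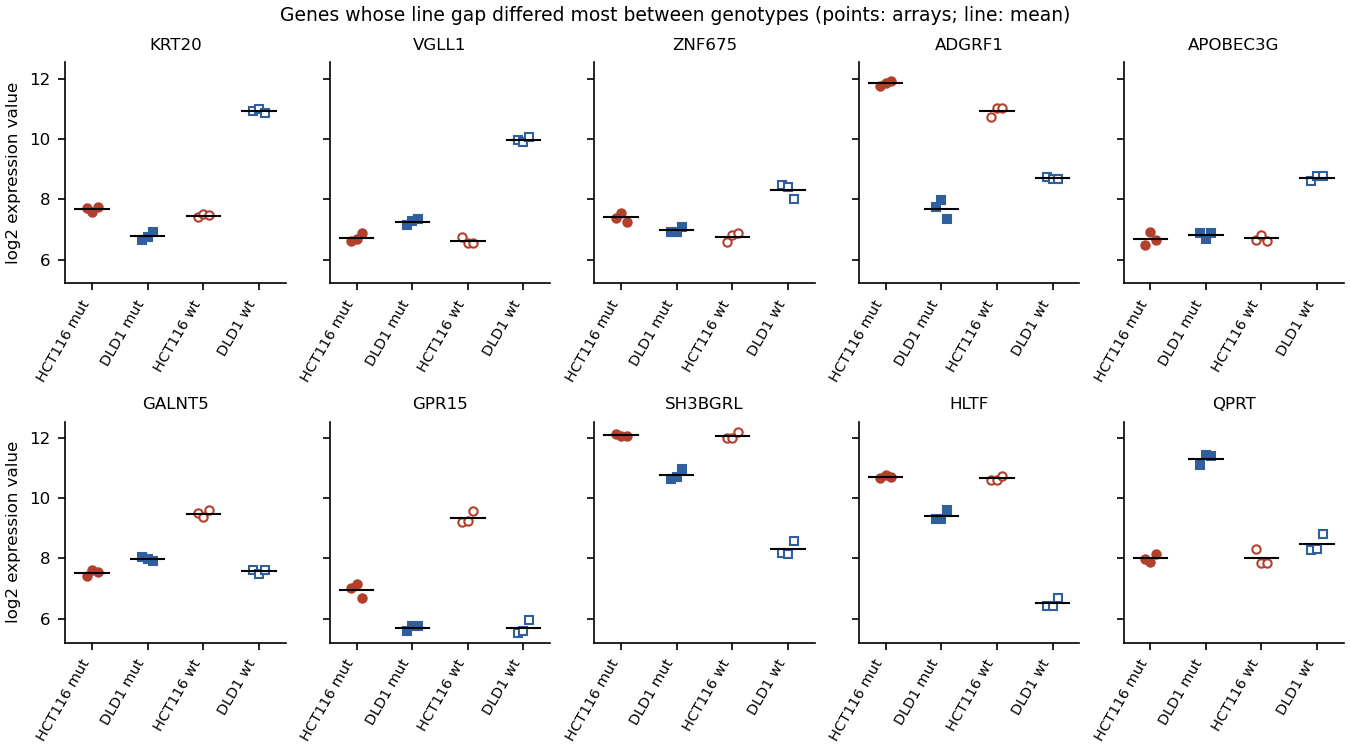
Log2 expression values (y axis) of the 10 genes whose line gap differed most between genotypes, 1 point per array and a line at each group mean, for HCT116 and DLD1 mutant-only cells (mut, filled) and HCT116 and DLD1 wild-type-only cells (wt, open). In KRT20, VGLL1, ZNF675, APOBEC3G, SH3BGRL and HLTF the DLD1 wild-type-only arrays stand apart from the other groups, in GPR15 and GALNT5 the HCT116 wild-type-only arrays do, and in QPRT the DLD1 mutant-only arrays do.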

How the data were processed

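Total RNA of 12 samples was hybridised to Affymetrix human gene arrays per the labels. The values, as deposited by the authors, are on a log2 scale for 28869 probe sets (transcript clusters). How the authors corrected background, summarised probes and normalized is not stated in any label or header used here. Of the clusters 19310 had 1 gene symbol in the platform annotation, 1752 several and 7807 none, and only those with 1 symbol were used. Where several clusters shared a gene, as for 685 genes, the one with the highest mean over all arrays stood for it, giving 18377 genes. Names were updated for 18349 genes through RefSeq's gene annotation (GRCh38.p14), from which the order of neighbouring genes was also taken. Values of the targeted gene itself are left out.

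Means of the 4 groups were fitted to all 12 arrays by lmFit and eBayes of limma 3.58.1, run in R 4.3.3 (8 residual and 5.17 prior degrees of freedom). All p-values are two-sided, with Benjamini-Hochberg adjustment over the 18377 genes. The fit was also run on simulated data, the outcome of which is not given here. Standard errors are on the log2 scale.

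The members, the 26 gene lists (1035 distinct genes, 924 measured) and the tests were chosen with earlier results of these data known, and the histone and microRNA groups after values were seen. The text names, by rule, the 12 highest and 12 lowest differences, up to 4 called members of each list, runs of at least 4 adjacent called genes, and the 5 highest and 5 lowest differences of the line gap. Other list members are examples. BDNF and PTPRR, in none of the lists, were named only for gaps of opposite sign and were not among the results checked under alternative processing.

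The labels number the arrays 1 to 3 in every group without stating a pairing. Deviations from the group means of same-numbered arrays of the lines correlated by 0.184, 0.224 and 0.407 in mutant-only cells and by 0.114, 0.399 and 0.283 in wild-type-only cells. Those of differently numbered arrays ran from -0.279 to 0.112 in mutant-only and from -0.413 to 0.114 in wild-type-only cells. All same-numbered values were thus above 0, and most of the differently numbered ones were below 0. Whether the numbers mark a pairing was not settled by these values, and the main fit does not use the number. The fit with the number as a block is given where it moved a count by over 1.5 times. For the mutant-only comparison at the adjusted p alone it gave 10098 genes, against 9305 without the block. With 3 arrays per group, precision is limited by that number.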

Additional observations from a re-analysis of the deposited data

Results flagged for a closer look

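For 10 genes the line gap in mutant-only cells differed from the gap in wild-type-only cells by the limma test of the difference, and these 10 had the largest differences in either direction. The difference, mutant-only gap minus wild-type-only gap on the log2 scale, was 4.3693 for KRT20, 2.8257 for VGLL1, 1.9763 for ZNF675, 1.9367 for ADGRF1 and 1.8832 for APOBEC3G. It was -2.8554 for QPRT, -2.8330 for HLTF, -2.4269 for SH3BGRL, -2.3883 for GPR15 and -2.3562 for GALNT5. The adjusted p ran from 2.2e-11 for KRT20 to 1.9e-05 for ADGRF1. The arrays of the 4 groups show which group carries each difference. In DLD1 wild-type-only cells KRT20 (10.92 ± 0.06), VGLL1 (9.97 ± 0.09), APOBEC3G (8.71 ± 0.10) and ZNF675 (8.30 ± 0.25) were high and HLTF (6.52 ± 0.15) and SH3BGRL (8.31 ± 0.24) were low relative to the other groups. In HCT116 wild-type-only cells GPR15 (9.34 ± 0.20) and GALNT5 (9.49 ± 0.12) were high, and in DLD1 mutant-only cells QPRT (11.31 ± 0.17) was high (SD, n = 3 each). For ADGRF1 the HCT116 mutant-only arrays (11.85 ± 0.08) were the highest and the DLD1 mutant-only arrays (7.68 ± 0.32) the lowest of the 4 groups. Line, allele and derived line cannot be told apart in this design.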

How the results depend on the processing

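The count of 1503 genes called between the mutant-only lines was 1503 with only the 6 arrays compared in the fit, 1505 with the replicate block, 1445 after quantile normalization, 1514 after median centring, 1503 with a gene's clusters averaged, 1183 with dim genes left out and 2090 when tested against 1.5-fold. Without any single array it ran from 1475 to 1547, the count at the adjusted p alone from 8538 to 8937, the wild-type-only count from 1427 to 1518 and the count of differing gaps from 955 to 1186. With the replicate block the count of differing gaps was 2120 instead of 1307, and the block moved no other count by over 1.5 times. Of 130 results for genes named by rule, 128 kept their direction and call under every alternative and none reversed. ANXA9 fell under 2-fold without DLD1 mutant-only replicate 2 (-0.97) and H2AC16 without DLD1 mutant-only replicate 1 (-0.99). The share of calls at the adjusted p that were higher in HCT116 was 48.0%, 50.6% after quantile normalization and 43.0% after median centring. Among the lists, quantile normalization gave 10 lower calls for amino acid stress genes and 10 for cell cycle genes, against 13 and 13. It gave 4 lower calls for glycolysis genes against 6, 4 for intestinal differentiation against 5 and 5 for DNA repair against 6. Higher calls were 2 for integrins, 3 for WNT genes and 1 for amino acid stress genes, against 3, 4 and 2. p53 targets had 4 higher calls against 3 and ERK output 8 against 7. After median centring lower calls were 14 for histone genes against 12 and 14 for cell cycle genes against 13. Chemokine genes then had 6 lower calls against 5. WNT, integrin and amino acid stress genes had as many higher calls as after quantile normalization. Of 115 other called list members and microRNA genes, 93 kept the call under every alternative and none reversed. The 22 that fell under 2-fold in at least 1 alternative had differences of at most 1.15 in size on the log2 scale, kept at least 0.86, and stayed at an adjusted p of at most 0.000758. They were ASNS, CCNE1, DDX60, FOXM1, GPX3, GSTA4, H2BC7, H2BC11, H4C9, KLF5, L1CAM, LRP4, MCM6, MIR21, P4HA2, PCNA, PDK1, PHGDH, SLC38A2, SLC7A1, SLC7A11 and TFF3, 18 of them when a single array was left out. No detection p-values were used, so what signal over background limits was not assessed.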
